A study of Mus musculus with 33 samples.

Results

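Nuclear RNA, given as that of cardiomyocytes, was compared between 3 Eif2a mutant libraries and 3 control libraries of the same mouse line. Markers of other cell types were also detected. Ptpmt1 was left intact in the mutants, and the series held 33 samples. The libraries were chosen by their genotype label alone, whereas the gene lists were chosen with earlier results of these data known. 5 of 13896 tested genes passed the adjusted threshold (0.036%): Slc2a3, Hjv, Bmp10 and Tppp3 rose in the mutants and R3hcc1 fell. None of the panel genes of the integrated stress response was called by limma; Atf4, Asns and Mthfd2 overlapped between the groups, and Trib3 was higher in every mutant than in any control. On a Ptpmt1 knockout background, libraries with the same mutation had lower Asns, Mthfd2 and Trib3 than libraries without it, and again higher Slc2a3 and Hjv.

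eIF2 is the factor that brings the initiator methionyl-tRNA to the ribosome. Its alpha subunit is phosphorylated by 4 kinases (Hri, PKR, PERK and GCN2) under different stresses, which lowers general translation and favours the translation of a few mRNAs such as Atf4. ATF4 then raises transcription of genes for amino acid synthesis, amino acid transport and tRNA charging; this programme is the integrated stress response. In heart muscle it is known as a response to mitochondrial dysfunction. Ptpmt1 encodes a mitochondrial phosphatase needed to make cardiolipin, the signature lipid of the inner mitochondrial membrane.

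The label names the mutated protein as Eif2alpha, which the gene Eif2s1 encodes; the gene with the symbol Eif2a encodes a separate initiation factor. The 3 mutants carried the Eif2a mutation only, and the 3 controls were labelled as control with no further allele named. The double mutants (3 libraries) carried the Eif2a mutation together with a cardiomyocyte-specific Ptpmt1 knockout, and the Ptpmt1 knockouts (3 libraries) carried that knockout alone. The residue changed, whether the mutation was limited to cardiomyocytes, the Cre driver, the age of the animals and the alleles that controls may share were not given in the sources used here. A second table, normalized separately, held 2 Hri knockouts, also limited to cardiomyocytes, and their 2 controls. RNA was prepared with removal of ribosomal RNA and without selection for poly(A), so that transcripts such as histone mRNAs are captured. Nothing in the labels says that libraries of a group came from separate animals, so p-values measure the spread between these libraries, part of which may be technical.

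The mutants held 6535417, 11211547 and 7729635 reads in genes, against 9857116, 9808006 and 11277025 in controls. Mutant 1 had fewer genes above 0 (15157) than mutants 2 and 3 (18439 and 17878) and controls 1, 2 and 3 (18320, 18173 and 18320), and 1439 genes were at 0 in it that were above 0 in all 5 others, against 30 to 62 in each of the others. Control 3 stood apart in another way: mitochondrially encoded transcripts took 0.675% of its signal, against 1.39% to 1.59% in the mutants and 1.55% to 1.70% in the other controls. Y-linked transcripts with little Xist, a male pattern, were seen in 3 of 3 mutants and in 1 of 3 controls, so sex pattern and genotype were unevenly matched. The controls thus came from more than 1 animal, whereas sex pattern does not settle this for the mutants. All 17 cardiomyocyte markers were detected and took 5.65% to 7.05% of the signal in mutants and 6.41% to 7.31% in controls. Endothelial markers took 0.152% to 0.159% in mutants and 0.149% to 0.173% in controls. Fibroblast markers took 0.119% to 0.162% in mutants and 0.143% to 0.160% in controls. Erythroid markers took 0.147% to 0.198% in mutants and 0.0867% to 0.307% in controls. RNA of other cells was thus present.

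Ptpmt1 was at 150, 162.8 and 158 normalized counts in the Eif2a mutants and 158, 156 and 175 in controls, while the doubles (46.7, 39.8 and 49.2) and the Ptpmt1 knockouts (40.6, 31.3 and 34.7) were all lower. Mutants and controls overlapped in Ptpmt1 (log2 fold change -0.05, limma adjusted p = 0.949). Eif2s1, at chr12:78861819-78887010, had 1087, 729 and 717 normalized counts in mutants and 691, 677 and 736 in controls, with a log2 fold change of 0.24 (95% interval -0.07 to 0.55, limma adjusted p = 0.686). The groups overlapped, and mutant 1 was the highest library. The labels do not give the kind of mutation, and a changed residue alone would leave a gene's count as it is. This level therefore does not check the label. Among the kinases, Eif2ak1, which encodes Hri, was at 396, 337 and 371 in mutants and 388, 390 and 346 in controls, and Eif2ak4, which encodes GCN2, was at 514, 462 and 444 in mutants and 383, 426 and 469 in controls. Eif2ak2 (PKR) also overlapped between groups, and Eif2ak3 (PERK) did not, at 188, 213 and 201 in mutants and 242, 219 and 246 in controls (limma adjusted p = 0.711). The gene with the symbol Eif2a was at 674, 632 and 619 in mutants and 569, 557 and 564 in controls (limma adjusted p = 0.646). Of 69 tested genes within 5 Mb of Eif2s1, 0 were called by limma, and 3 (4.35%) had an unadjusted p under 0.05, against 7.97% of all tested genes.

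Upstream sequence is shown for genes among the 12 rises of lowest p, because a set of them are glucose and oxygen response genes and because Trib3 is a target of ATF4. Each is the 250 bases before the transcription start in RefSeq (GRCm38.p6), with ACGTG on either strand in capitals. ACGTG is the core of the element that hypoxia-inducible factors bind, and CACGTG, which holds it on both strands, is also the E-box that MYC and clock proteins bind.
Egln1 (chr8:124949255-124949504, minus strand): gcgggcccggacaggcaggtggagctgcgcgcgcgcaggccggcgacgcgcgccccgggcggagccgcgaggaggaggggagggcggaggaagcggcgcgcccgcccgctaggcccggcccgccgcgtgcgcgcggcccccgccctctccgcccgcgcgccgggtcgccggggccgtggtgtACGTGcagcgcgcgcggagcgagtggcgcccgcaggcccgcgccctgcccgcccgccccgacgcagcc
Ero1l (chr14:45318573-45318822, minus strand): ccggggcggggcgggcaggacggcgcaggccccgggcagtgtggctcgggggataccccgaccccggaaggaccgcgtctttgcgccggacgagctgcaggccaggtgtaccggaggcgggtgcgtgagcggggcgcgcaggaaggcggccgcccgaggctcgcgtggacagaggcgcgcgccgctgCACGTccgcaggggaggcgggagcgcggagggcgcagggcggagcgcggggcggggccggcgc
Pfkfb3 (chr2:11502091-11502340, minus strand): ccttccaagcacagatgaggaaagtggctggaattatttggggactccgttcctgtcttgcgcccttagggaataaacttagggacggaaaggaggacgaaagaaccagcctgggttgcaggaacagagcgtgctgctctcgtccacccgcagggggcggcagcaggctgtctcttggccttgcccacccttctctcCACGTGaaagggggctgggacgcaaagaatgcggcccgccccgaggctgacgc
Bmp10 (chr6:87428744-87428993, plus strand): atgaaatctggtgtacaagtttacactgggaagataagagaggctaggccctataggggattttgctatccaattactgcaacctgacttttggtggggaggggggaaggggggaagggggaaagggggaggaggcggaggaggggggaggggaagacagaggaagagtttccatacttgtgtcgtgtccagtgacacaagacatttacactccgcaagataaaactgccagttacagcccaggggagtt
Trib3 (chr2:152344061-152344310, minus strand): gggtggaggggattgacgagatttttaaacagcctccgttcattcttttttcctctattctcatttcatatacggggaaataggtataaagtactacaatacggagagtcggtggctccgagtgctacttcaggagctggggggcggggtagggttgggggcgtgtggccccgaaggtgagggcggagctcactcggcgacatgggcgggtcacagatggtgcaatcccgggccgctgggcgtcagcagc
Egln1 and Ero1l hold ACGTG once, the printed window of Pfkfb3 holds it as CACGTG, and Bmp10 and Trib3 do not hold it in this window. Pfkfb3 has a second window, not printed, which holds ACGTG once and not as CACGTG. Among the 24 genes named by lowest p, 16 had such a window; ACGTG stood in 5 of 8 that were higher and 2 of 8 that were lower in mutants, where a gene counts if any of its windows holds it (Crmp1, Pfkfb3 and Arf2 have 2 windows each). Counted by window and not by gene, it stood in 16.6% of all 32851 promoters. CACGTG stood in 6.02% of all promoters. TGATGNAA, the element of ATF4 with its partners, was in 0 of the 16 and in 3.45% of all promoters. A match is a description of the letters and shows no binding, and no match says only that the letters are not in this window. No upstream sequence is shown for Slc2a3, Hjv, R3hcc1 and Tppp3.

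The called genes were not of 1 kind. Slc2a3, the high-affinity glucose transporter GLUT3 (chr6:122727809-122801640, minus strand), had 745, 933 and 734 normalized counts in mutants and 341, 376 and 309 in controls. Each mutant lay above each control by a wide margin. The means were 804 ± 112 in mutants and 342 ± 33.5 in controls (SD, n = 3 each), a 2.34-fold rise (95% interval 1.97 to 2.79), with a log2 fold change of 1.23 ± 0.12 (SE, limma adjusted p = 0.000344). Behind these values stood 587, 1266 and 700 reads in mutants and 414, 452 and 420 in controls.

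Hjv encodes hemojuvelin, a co-receptor for bone morphogenetic proteins that in liver controls hepcidin and is also made in skeletal muscle and heart (chr3:96525172-96529210, plus strand, annotated as Hfe2). It had 211, 252 and 217 normalized counts in mutants and 91.3, 88.9 and 115 in controls. Bmp10, a ligand of that protein family made by atrial and embryonic trabecular cardiomyocytes (chr6:87428994-87437677, plus strand), had 2417, 2446 and 2525 in mutants and 1631, 1863 and 1557 in controls. In both genes all mutants lay above all controls. Hjv rose 2.29-fold, with a log2 fold change of 1.20 ± 0.14 (limma adjusted p = 0.00329), and Bmp10 rose 1.47-fold, with a log2 fold change of 0.55 ± 0.08 (limma adjusted p = 0.0236).

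Bmp10 is 1 of the atrial cardiomyocyte markers, of which 9 were tested. Of these, 7 were higher in mutants, with a median log2 fold change of 0.21, and only Bmp10 passed the adjusted threshold. Together they took 0.413% to 0.452% of the signal in mutants and 0.386% to 0.442% in controls (exact permutation p = 0.3). Nppa, atrial natriuretic peptide, overlapped between groups, at 9477, 9766 and 10639 in mutants and 8604, 10073 and 8251 in controls. Kcnj3, a channel subunit of atrial pacemaking currents, did not overlap, at 227, 252 and 238 in mutants and 170, 200 and 140 in controls (limma adjusted p = 0.375). Gja5, the gap junction protein connexin 40, went the other way, at 1153, 1068 and 1293 in mutants and 1762, 1902 and 1407 in controls (limma adjusted p = 0.303). In bulk RNA, a different number of cells of a type and a different amount of RNA per cell cannot be told apart.

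Tppp3, a tubulin-binding protein (chr8:105467493-105471526, minus strand), had 78.7, 92.1 and 99.7 normalized counts in mutants and 28.8, 26.6 and 31.6 in controls. It was the least expressed of the called genes, with 62, 125 and 95 reads in mutants and 35, 32 and 43 in controls. It rose 3.03-fold (95% interval 2.07 to 4.44), with a log2 fold change of 1.60 ± 0.26 (limma adjusted p = 0.0456), close to the threshold. R3hcc1, which encodes an R3H domain protein (chr14:69697307-69707584, minus strand), fell to 91.3, 115 and 109 in mutants, against 230, 238 and 199 in controls. Its log2 fold change was -1.07 ± 0.14 (limma adjusted p = 0.00813), so that mutants held 0.475 times the control level.

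**Figure D1:**
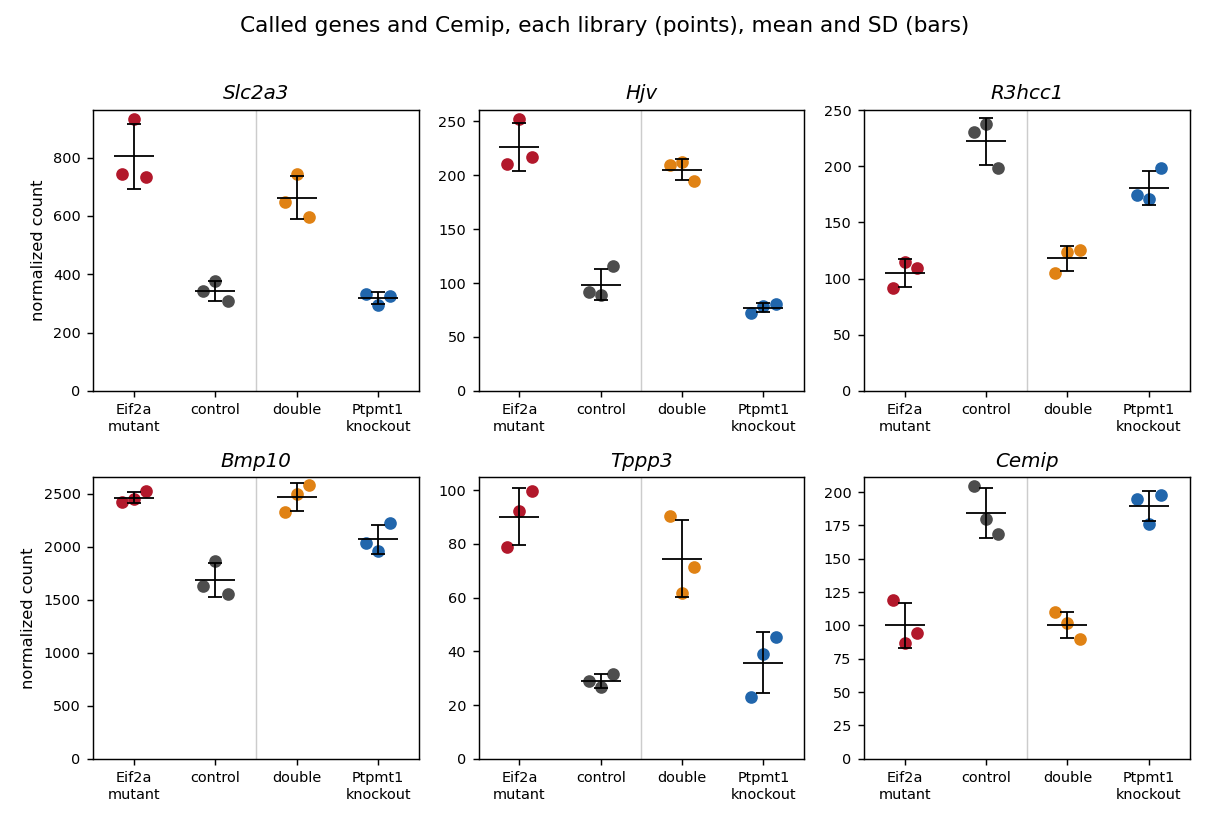
Normalized counts per library (points) with group means (bars) and SD (error lines, n = 3) for the 5 called genes and for Cemip, in Eif2a mutant, control, double and Ptpmt1 knockout libraries, on linear axes from 0. In Slc2a3 and Hjv both groups with the Eif2a mutation lie above both groups without it; Cemip lies lower in both groups with the mutation.

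How firmly these calls stand differed between the genes. Over 27 alternative settings (other tools, filters, a term for sex pattern, libraries left out), limma or its alternatives called Slc2a3 in 26, Hjv in 25, R3hcc1 in 23, Bmp10 in 14 and Tppp3 in 11. Without mutant 1, 4 genes were called; Slc2a3, Hjv and R3hcc1 stayed called, and Bmp10 and Tppp3 both had a limma adjusted p of 0.0644. R3hcc1 no longer passed without control 1 (0.113) or control 2 (0.0965), Bmp10 passed only without control 2 among the 6 libraries left out in turn, and Tppp3 passed in none of those 6 cases. With a term for sex pattern 5 genes were called, of which 3 were Slc2a3, Hjv and R3hcc1. Among male-pattern libraries alone only 1 control is left, which the fit assumes to vary like the other groups; Slc2a3 then had a log2 fold change of 1.23 and a limma adjusted p of 0.0743, and was not called. DESeq2 on the recovered reads called 47 genes, 35 higher and 12 lower, and 22 of the 24 genes named by lowest p were among them.

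**Figure D2:**
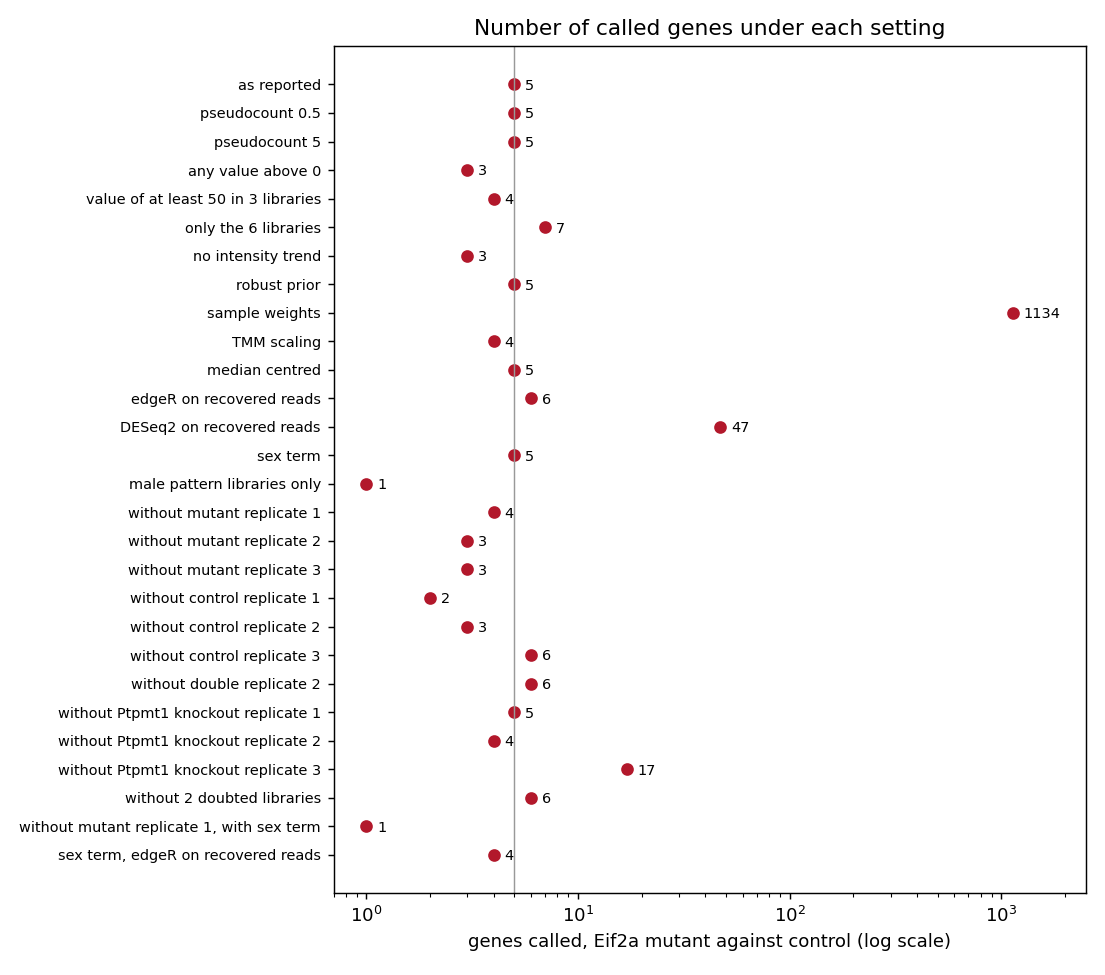
Number of genes called in Eif2a mutant against control libraries (log axis) for each setting listed down the page, with the setting reported in the text marked. DESeq2 gave 47 genes and weighting of samples 1134; every other setting shown gave 1 to 17.

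Below the adjusted threshold, 573 genes were higher (4.12%) and 535 lower (3.85%) in mutants at an unadjusted p under 0.05, against 695 expected in both directions if no gene differed. With a term for sex pattern the counts were 373 higher and 326 lower, and without mutant 1 they were 486 higher and 304 lower. In 1163 genes (8.37%) all mutants lay above all controls, and in 1106 (7.96%) all lay below. The genes named next are those of lowest p by a rule that also asked for a mean of at least 50 normalized counts; none of them passed the adjusted threshold.

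Among the genes with higher values were several that respond to low oxygen. Ero1l, the endoplasmic reticulum oxidase that forms disulfide bonds, had 707, 681 and 656 in mutants and 485, 459 and 457 in controls (log2 fold change 0.54, limma adjusted p = 0.099). Egln1, the prolyl hydroxylase PHD2 that marks hypoxia-inducible factor for degradation, had 1127, 1237 and 1176 in mutants and 870, 810 and 732 in controls (0.56, limma adjusted p = 0.155). Pfkfb3, which makes the activator of phosphofructokinase, had 421, 580 and 435 in mutants and 323, 332 and 292 in controls (0.59, limma adjusted p = 0.196). In each of these genes no mutant overlapped a control.

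Other genes with higher values were of mixed function. Crmp1, a collapsin response mediator of the cytoskeleton, had 186, 214 and 186 in mutants and 126, 109 and 127 in controls. Rxfp1, the relaxin receptor, had 425, 329 and 286 in mutants and 172.8, 169 and 173.5 in controls. Zim1, an imprinted zinc finger gene, had 1283, 1286 and 1280 in mutants and 981, 918 and 929 in controls. Their log2 fold changes were 0.69, 0.99 and 0.44, with limma adjusted p of 0.155, 0.196 and 0.155. Mthfd1l, the mitochondrial formate-producing enzyme of one-carbon metabolism, had 590, 547 and 598 in mutants and 402, 432 and 457 in controls (0.43, limma adjusted p = 0.196).

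Among the genes with lower values, Stmn1, the microtubule destabiliser stathmin, and Cemip, which takes part in hyaluronan breakdown, came closest to the threshold. Stmn1 had 308, 262 and 292 in mutants and 439, 432 and 430 in controls (log2 fold change -0.60, limma adjusted p = 0.0733); its exons overlap those of a small annotated gene, Gm23634. Cemip had 119, 86.9 and 94.4 in mutants and 205, 180 and 168 in controls (-0.88 ± 0.15, limma adjusted p = 0.0733). Both genes separated the groups completely.

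Cdo1, cysteine dioxygenase, which starts taurine synthesis from cysteine, had 95.1, 147 and 144.8 in mutants and 239, 232 and 241 in controls (log2 fold change -0.90, limma adjusted p = 0.155). Lrp2, the endocytic receptor megalin, had 147, 123 and 129 in mutants and 244, 257 and 297 in controls (-0.99, limma adjusted p = 0.196). Irx3, a transcription factor of the ventricular conduction system, had 99.0, 157 and 144 in mutants and 234, 229 and 232 in controls (-0.82, limma adjusted p = 0.249); it shares exon sequence with the antisense gene Irx3os, and whether counting used strand was not given in the sources used here. Gja5, given above, also belongs to the conduction system and is also among the 12 lowest p. Lmod2, which nucleates thin filaments of the sarcomere, had 502, 706 and 794 in mutants and 993, 1076 and 918 in controls (-0.60, limma adjusted p = 0.303). In all of these, the highest mutant lay below the lowest control.

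Hmgn2, a nucleosome-binding protein, and the linker histone gene Hist1h1b were both lower in every mutant than in any control. Hmgn2 had 1308, 1054 and 997 in mutants and 1502, 1524 and 1621 in controls, and Hist1h1b had 1035, 1003 and 966 in mutants and 1199, 1307 and 1623 in controls. Arf2, a small GTPase of vesicle budding, had 223, 276 and 258 in mutants and 350, 369 and 332 in controls, and Inpp5j, an inositol phosphatase whose exons overlap Pla2g3, had 82.5, 119 and 118 in mutants and 171.1, 194 and 157 in controls. Their limma adjusted p lay at 0.222, 0.303, 0.281 and 0.303.

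The integrated stress response was examined through a panel of 15 genes, of which 13 were tested. None was called by limma in mutants against controls, 1 was higher and 1 lower at an unadjusted p under 0.05, and in 10 the groups overlapped. Over all tested genes, 4.12% were higher and 3.85% lower at that level. All mutants lay above all controls in 8.37% of all tested genes and below in 7.96%. DESeq2 called Trib3 among the panel genes. Atf4 itself had 723, 764 and 759 normalized counts in mutants and 708, 728 and 727 in controls (log2 fold change 0.05, 95% interval -0.22 to 0.33, limma adjusted p = 0.931). Asns, asparagine synthetase, had 189, 279 and 240 in mutants and 211, 224 and 260 in controls (0.02, -0.31 to 0.34, limma adjusted p = 0.982). Mthfd2, the mitochondrial folate enzyme, had 260, 234 and 195 in mutants and 229, 245 and 287 in controls (-0.15, -0.52 to 0.23, limma adjusted p = 0.843). The mutants thus lay within or near the control range, and the intervals leave out a halving or a doubling of these transcripts.

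Serine synthesis genes were alike in this. Psat1, phosphoserine aminotransferase, had 524, 476 and 421 in mutants and 388, 379 and 486 in controls (0.18, limma adjusted p = 0.747). Phgdh, the first enzyme of the pathway, had 166.2, 225 and 195 in mutants and 169, 175 and 247 in controls (-0.00, 95% interval -0.44 to 0.44). Both pairs of groups overlapped. Ddit3, which encodes the stress factor CHOP, ranged widely in both groups, at 24.1, 90.6 and 75.5 in mutants and 56.8, 65.7 and 91.9 in controls. The hormone genes Gdf15 and Fgf21 did not reach the minimum level for testing, and Fgf21 was at 0 in every one of the 12 libraries.

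In a wider list of response regulators, 15 genes were tested; all mutants lay above all controls in 6 of them and below in 1, against 8.37% and 7.96% of all tested genes, and 0 were called by limma. Trib3, a pseudokinase that dampens ATF4 output, had 69.8, 39.1 and 45.1 in mutants and 14.8, 14.96 and 13.2 in controls (log2 fold change 1.73 ± 0.34, limma adjusted p = 0.155). Stc2, the secreted glycoprotein stanniocalcin-2, had 180, 134.8 and 107 in mutants and 72.4, 83.9 and 54.4 in controls (0.98, limma adjusted p = 0.467). In both genes mutant 1, the library with fewest detected genes, was the highest. Atf3, a stress-induced transcription factor, had 96.4, 70.0 and 94.4 in mutants and 150, 157 and 97.0 in controls (-0.61, limma adjusted p = 0.506). Shmt2, the mitochondrial serine hydroxymethyltransferase, had 768, 704 and 704 in mutants and 472, 520 and 492 in controls (0.55, limma adjusted p = 0.428).

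**Figure D3:**
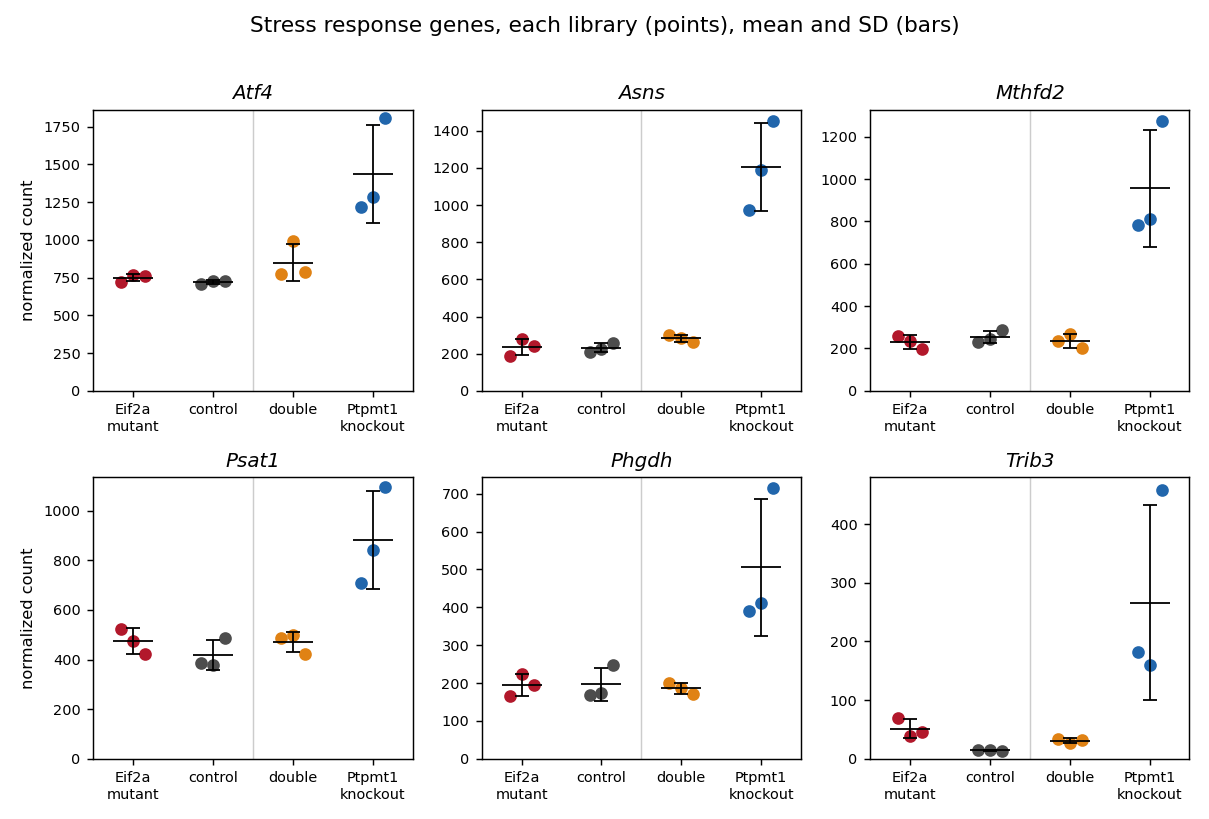
Normalized counts per library (points) with group means (bars) and SD (error lines, n = 3) for 6 integrated stress response genes in Eif2a mutant, control, double and Ptpmt1 knockout libraries, on linear axes from 0. Atf4, Asns, Mthfd2, Psat1 and Phgdh lie close together in mutants, controls and doubles and higher in Ptpmt1 knockouts; Trib3 is above control in mutants and doubles and highest in Ptpmt1 knockouts.

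Read by list, the translation machinery around eIF2 gave no call. Of 8 tested eIF2 and eIF2B subunit genes, 0 had an unadjusted p under 0.05 (median log2 fold change 0.05), and the same was true of 20 aminoacyl-tRNA synthetase genes (median 0.06). Of 33 other initiation factors, 3 were higher at that level and 0 lower; Eif5, the GTPase activator that acts on eIF2 itself, was at 3168, 2267 and 2339 in mutants and 2057, 2056 and 1801 in controls (limma adjusted p = 0.424). Of 79 ribosomal protein genes 2 were higher and 0 lower, and of 25 genes of the unfolded protein response in the endoplasmic reticulum 3 were higher and 0 lower. These counts depended on control 3, the control that stood apart: without it 9 ribosomal protein genes and 11 genes of the unfolded protein response were higher and 0 lower, against 4.58% higher over all tested genes. Without mutant 1, 1 gene of each list was higher. Against 4.12% higher over all tested genes, the share was 9.09% in the initiation factors and 12% in the unfolded protein response list, whose 3 genes are the disulfide isomerase Pdia6 and the chaperones Canx and Hsp90b1. Of 16 mitochondrial chaperones and proteases, 0 passed in either direction.

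In glucose uptake and glycolysis most values were higher in mutants. Of 23 tested genes, 8 (34.8%) were higher and 1 lower at an unadjusted p under 0.05, against 4.12% and 3.85% of all tested genes. Of the 23, 20 had a positive log2 fold change, and the median was 0.15, against -0.01 over all genes; none passed the adjusted threshold. Slc2a3 is not on that list. Its sister transporter Slc2a1 (GLUT1) had 4882, 4876 and 4949 in mutants and 3284, 3037 and 4874 in controls, so that control 3 lay at the mutant level. Hk2, hexokinase 2, had 1748, 1955 and 1755 in mutants and 1228, 1225 and 1468 in controls (log2 fold change 0.48, limma adjusted p = 0.196). Ldha, the muscle form of lactate dehydrogenase, had 11561, 10831 and 10703 in mutants and 8931, 9035 and 9863 in controls (0.25, limma adjusted p = 0.375). Ldhb, the heart form of that enzyme, was the 1 lower gene, at 1075, 1217 and 1281 in mutants and 1581, 1708 and 1399 in controls (-0.39, limma adjusted p = 0.519). The summed level of the list was 80454, 85326 and 83405 in mutants and 71173, 73333 and 81361 in controls. Without mutant 1 the count was 8 higher and 0 lower, and with a term for sex pattern 7 higher and 1 lower.

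In fatty acid uptake and oxidation most values were lower in mutants. Of 24 tested genes, 3 had a positive log2 fold change (median -0.14), and 1 was higher and 2 lower at an unadjusted p under 0.05, against 4.12% and 3.85% of all tested genes. Without control 3 the count was 0 higher and 6 lower. It was 0 higher and 1 lower with a term for sex pattern, and 1 higher and 2 lower without mutant 1. Eci1, an isomerase of unsaturated fatty acid oxidation, had 297, 315 and 328 in mutants and 403, 401 and 418 in controls (limma adjusted p = 0.462). Cd36, the fatty acid transporter, had 422, 465 and 485 in mutants and 355, 415 and 246 in controls (limma adjusted p = 0.549). Complex I (37 genes, 2 higher and 2 lower) and complexes II to V (42 genes, 0 higher and 3 lower) had medians of -0.08 and -0.07. With a term for sex pattern these medians were -0.01 and -0.02. Complex I then had 1 gene higher and 1 lower, and complexes II to V had 0 each way. Without mutant 1, complex I had 1 higher and 0 lower, and complexes II to V had 0 each way. All mutants lay below all controls in 11 complex I genes and above in 0. In complexes II to V, all lay below in 9 genes and above in 1. Over all tested genes these shares were 7.96% below and 8.37% above.

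Most replication-dependent histone genes had lower values in mutants. Of 33 tested, 11 (33.3%) were lower and 0 higher at an unadjusted p under 0.05, against 3.85% lower and 4.12% higher over all tested genes, and 2 had a positive log2 fold change (median -0.29). Besides Hist1h1b, Hist1h1c had 1346, 1604 and 1554 in mutants and 1818, 1876 and 2211 in controls. The summed level was 15576, 18788 and 17710 in mutants and 20505, 20848 and 23120 in controls, lowest in mutant 1. Without mutant 1 the count was 6 lower, and with a term for sex pattern 4 lower. Of 29 other cell cycle genes 3 were lower and 0 higher, with a median of -0.09; without control 3, 0 were lower and 1 higher. Histone genes are near-identical copies of each other, so reads may have been divided between them.

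Among 18 tested targets of p53, 4 (22.2%) were higher and 2 (11.1%) lower at an unadjusted p under 0.05, against 4.12% and 3.85% of all tested genes. Cdkn1a, the cell cycle inhibitor p21, had 221, 230 and 211 in mutants and 144.8, 119 and 147 in controls (log2 fold change 0.69, limma adjusted p = 0.303). Ccng1, cyclin G1, had 1727, 1738 and 1684 in mutants and 1366, 1445 and 1274 in controls (0.34, limma adjusted p = 0.229). Btg2 was 1 of the 2 lower ones, at 225, 230 and 238 in mutants and 309, 324 and 261 in controls (limma adjusted p = 0.534). The list held 11 positive values of 18.

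Contractile and fetal genes gave no call. Of 23 sarcomere genes 2 were higher and 2 lower at an unadjusted p under 0.05, against 4.12% and 3.85% of all tested genes. Their median was -0.14. All mutants lay below all controls in 8 of the 23 and above in 1, against 7.96% and 8.37% of all tested genes. Myl2, the ventricular regulatory light chain, had 29124, 28460 and 27690 in mutants and 34543, 34678 and 33068 in controls (-0.26, limma adjusted p = 0.495). Myh6 and Myh7, the adult and fetal myosin heavy chains, had log2 fold changes of -0.22 and -0.17, and Nppb, brain natriuretic peptide, 0.33 (limma adjusted p = 0.685). Of 28 extracellular matrix genes 2 (7.14%) were higher and 1 (3.57%) lower at that level, against 4.12% and 3.85% of all tested genes. Of the marker lists of other cells, epicardium and adipocytes separated the groups. All 10 epicardial markers were tested and took 0.0338% to 0.0411% of the signal in mutants and 0.0421% to 0.0424% in controls (exact permutation p = 0.1, the smallest that 3 against 3 allows). Among them, 2 were higher and 3 lower at an unadjusted p under 0.05, against 4.12% and 3.85% of all tested genes. Of the 10, 2 had a positive log2 fold change (median -0.32). Krt8 was higher in every mutant, at 223, 161 and 157 in mutants and 84.7, 68.2 and 133 in controls, and so was Krt19. Upk3b was lower in every mutant, at 669, 635 and 711 in mutants and 764, 792 and 979 in controls, and so was Tbx18. All mutants lay above all controls in 2 of the 10 and below in 2, against 8.37% and 7.96% of all tested genes. Muc16 and Msln were low in control 3 as well as in the mutants. Adipocyte markers took at most 0.000277% in mutants and 0.000112% in controls (exact permutation p = 0.1), with Lep, Retn and Cfd at 0 in all 6 libraries. Only 1 of these 9 markers was tested, Fabp4, which is also on the endothelial list. It had 6, 21 and 8 reads in mutants and 2, 8 and 3 in controls. In all, 12 marker lists were compared without adjustment, so some can separate the groups with no difference behind it. The part of such cells in the results was not tested.

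**Figure D4:**
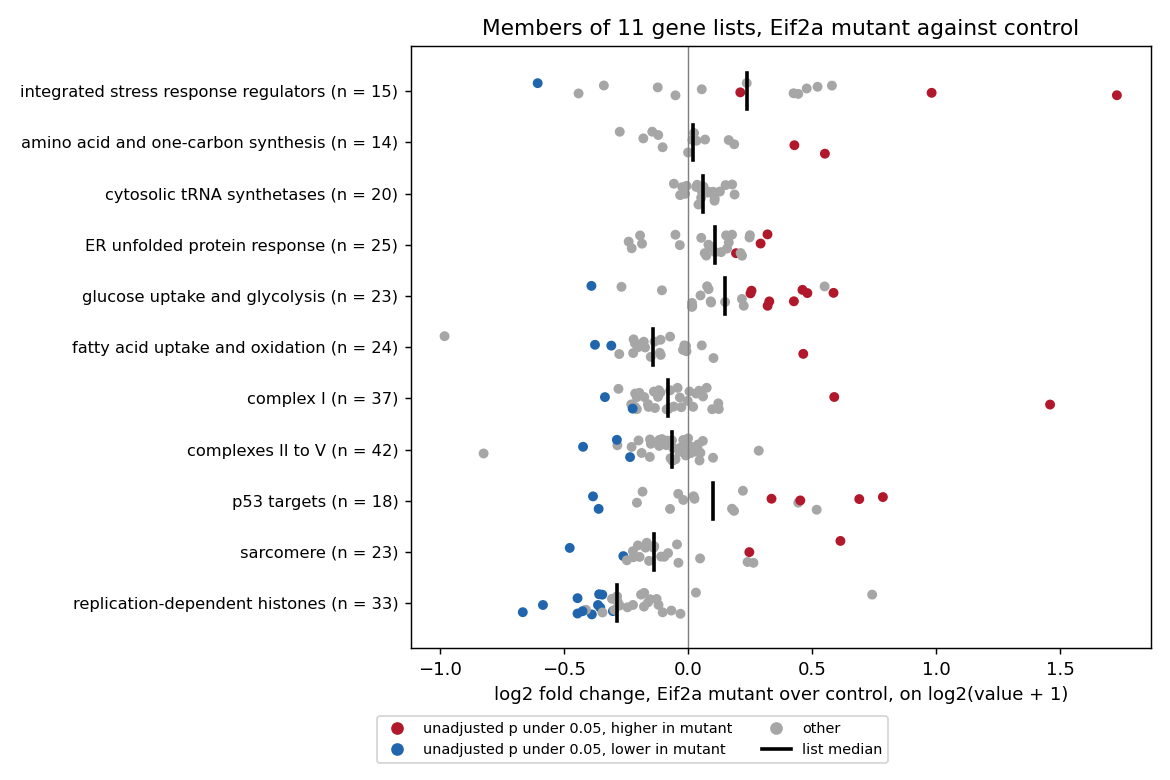
Log2 fold change of Eif2a mutant against control for each tested gene (points) of 11 lists, with the list median (line); 0 means equal levels. Points of glucose uptake and glycolysis lie mostly to the right of 0 (median 0.15) and those of replication-dependent histones mostly to the left (median -0.29).

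On the Ptpmt1 knockout background, 3 double libraries with the Eif2a mutation were set against 3 Ptpmt1 knockouts without it. None of them was in either group of the comparison above. All 12 libraries were in the same fit, however, so the limma p-values of both comparisons share an estimate of the spread. Doubles against Ptpmt1 knockouts gave 62 genes higher (0.446%) and 60 lower (0.432%) by limma. Double 2 held 1887978 reads and 15336 genes above 0, against 6871739 reads or more and 17567 genes or more in the other 5 libraries, and double 1 had a female pattern where the others had a male one. Without double 2, 49 genes were called in all, and with a term for sex pattern 58. Of the 12 genes of lowest p that were higher in mutants against controls, 10 had the same sign there, and of the 12 that were lower, 9 had, against 55.8% of all tested genes. The medians there were 0.35 for the first set (0.64 in mutants against controls) and -0.42 for the second (-0.66). Both sets were chosen by their p in mutants against controls, which favours larger values in that comparison. The medians therefore do not compare the size of the effect between backgrounds.

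Slc2a3 and Hjv were called in both backgrounds. Slc2a3 had 649, 742 and 596 normalized counts in doubles and 333, 294 and 327 in Ptpmt1 knockouts, a log2 fold change of 1.05 ± 0.12 (limma adjusted p = 0.000649). Hjv had 209, 212 and 194 in doubles and 72.4, 78.6 and 80.8 in Ptpmt1 knockouts (1.40 ± 0.14, limma adjusted p = 0.000295). In each gene, every library with the Eif2a mutation lay above every library without it, 6 against 6. For the other called genes the double against knockout comparison did not pass: R3hcc1 had 105, 124 and 125 in doubles and 174.2, 170.5 and 198 in Ptpmt1 knockouts (-0.61, limma adjusted p = 0.0617). Tppp3 had a log2 fold change of 1.07 there (limma adjusted p = 0.0705), and Bmp10 0.25 (limma adjusted p = 0.178).

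Of the 12 genes of lowest p that were lower in mutants against controls, Cemip and Cdo1 were called lower in doubles. Cemip had 110, 102 and 90.2 in doubles and 195, 176 and 197.5 in Ptpmt1 knockouts (-0.91 ± 0.15, limma adjusted p = 0.01), against -0.88 without the knockout. Cdo1 had 132, 115 and 134.7 in doubles and 247, 255 and 174.1 in Ptpmt1 knockouts (-0.81, limma adjusted p = 0.0488). Ero1l and Zim1 had log2 fold changes of -0.01 and 0.01 there, so that they were near 0 on that background. Irx3, Hist1h1b and Gja5 had the opposite sign there (0.22, 0.12 and 0.25).

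**Figure D5:**
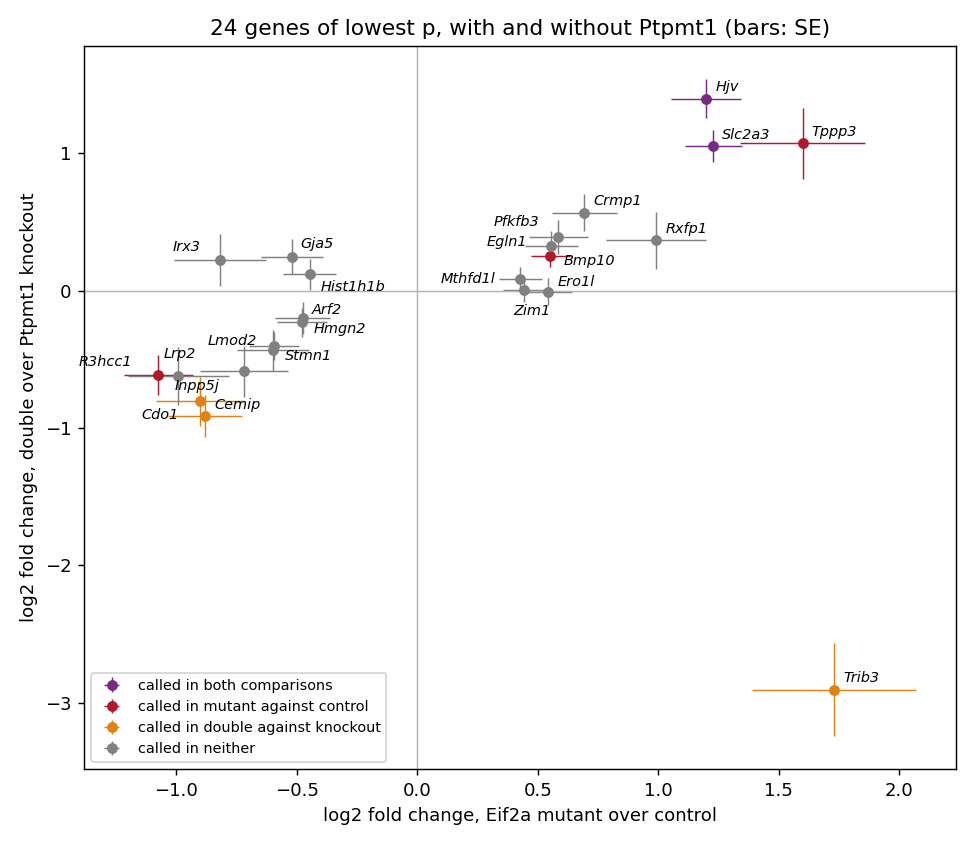
Log2 fold change of Eif2a mutant against control (x axis) and of double against Ptpmt1 knockout (y axis) for the 24 genes of lowest p in the first comparison. Bars give the SE, lines mark no change on each axis, and colours give the comparisons in which a gene was called. Slc2a3, Hjv and Cemip have similar values on both axes, and Trib3 lies at 1.73 and -2.91.

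The difference of effect between the backgrounds was tested directly, and 3 genes (0.0216%) passed by limma: Trib3, Asns and Mthfd2. Asns was at 300, 283 and 263 in doubles and 976, 1187 and 1452 in Ptpmt1 knockouts, a log2 fold change of -2.07 (limma adjusted p = 9.99e-06), against 0.02 in mutants against controls. Mthfd2 was at 235, 270 and 204 in doubles and 783, 813 and 1275 in Ptpmt1 knockouts (-1.99, limma adjusted p = 5.03e-05), against -0.15. Trib3 was at 33.5, 26.5 and 32.8 in doubles and 181, 160 and 457 in Ptpmt1 knockouts (-2.91, limma adjusted p = 0.000775), against 1.73. The effect of the mutation on Trib3 had opposite signs, though it was called on the knockout background only. 10 of the 13 tested panel genes were called lower in doubles than in Ptpmt1 knockouts, against 0.432% of all tested genes.

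By list, the backgrounds are set side by side without a test of their difference. Of the 23 glucose genes, 21 had the same sign in both, against 55.8% of all tested genes. In doubles against Ptpmt1 knockouts 6 were called higher, against 0.446% of all tested genes. Among these 6 were Ldha (0.46, limma adjusted p = 0.00887), Pfkp (0.46) and Pgk1 (0.39). Of the 33 histone genes 3 had the same sign, the median there being 0.26, and 0 were called. Of the 62 genes called higher in doubles, 54 were also higher in mutants against controls, with 28 at an unadjusted p under 0.05 and a median of 0.21. Of the 60 called lower in doubles, 32 were lower in mutants against controls, with 8 at that level and a median of -0.03. Over all tested genes, 55.8% had the same sign in both comparisons. In mutants against controls, 4.12% of all tested genes were higher and 3.85% lower at that level.

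Set directly against each other, the Eif2a mutants and the Ptpmt1 knockouts differed in more genes: 251 were higher (1.81%) and 156 lower (1.12%) in the mutants by limma. 9 of the 13 stress panel genes were among those lower, with Asns at a log2 fold change of -2.35 (limma adjusted p = 1.72e-06), Mthfd2 at -2.03 (limma adjusted p = 2.56e-05) and Atf4 at -0.92 (limma adjusted p = 0.00349). Lower in mutants were also 11 tRNA synthetase genes and 9 enzymes that make amino acids or one-carbon units. 10 glucose genes were higher in mutants than in Ptpmt1 knockouts, and so were Slc2a3 (1.33, limma adjusted p = 2.89e-05), Hjv (1.54, limma adjusted p = 4.98e-05), Tppp3 (1.36, limma adjusted p = 0.0141) and Egln1 (0.75, limma adjusted p = 0.00449). R3hcc1 was lower (-0.78, limma adjusted p = 0.0116). These mutant libraries are the same as in the comparison with controls.

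Hri is 1 of the kinases that phosphorylate eIF2 alpha, so the cardiomyocyte-specific Hri knockout gives another single mutant of the pathway. Hri knockouts against their own controls gave 3 calls (0.02% of 14965 tested genes): Rec8, a meiotic cohesin subunit, Amph, an endocytosis protein, and Grhl1, an epithelial transcription factor. Rec8 had 424 and 328 in Hri knockouts and 104 and 96.6 in controls, and its log2 fold change in Eif2a mutants against their controls was -0.06. Amph and Grhl1 were lower in Hri knockouts (-2.66 and -1.20), with 0.56 and 0.12 in Eif2a mutants. Slc2a3, Hjv and R3hcc1 had log2 fold changes of 0.08, -0.00 and 0.05 in Hri knockouts, none called with 2 libraries a group. The 2 Hri knockouts had a male pattern and their 2 controls did not, so sex and genotype cannot be told apart there.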

How the data were processed

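The authors' deposited tables hold gene signal values that are counts divided by size factors (normalized counts). Per the submitters' processing notes, STAR 2.5.3a, DESeq2 1.12.4 and mm10 were used; counter, annotation and strand setting were not given in the sources used here. Whole reads were recovered from the step of 1 read for every value within a tolerance of 0.1. Genes reaching 10 in at least 3 of 12 libraries were tested on log2(value + 1) with limma 3.58.1 (trend, 4 group means, 2-sided, Benjamini-Hochberg over all 13896 genes, threshold 0.05, in R 4.3.3); a fold change on that scale understates the change of low genes. edgeR 4.0.16 and DESeq2 1.42.0 on recovered reads, other filters and pseudocounts, a sex term and each library left out were alternatives. Library shares used exact permutation tests over samples (smallest p for 3 against 3 is 0.1).

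Genes named were the targeted and panel genes, every called gene, the 12 rises and 12 falls of lowest p with a mean of at least 50 and no clone name, and up to 3 genes a list. The members and lists were chosen with earlier results of these data known. Of the 24 genes of lowest p, 16 matched RefSeq promoters. Coordinates are GENCODE M21 (mm10). Lines other than those described were not used here. Genes whose symbols had become dates (26) carry no name.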

Additional observations from a re-analysis of the deposited data

Results flagged for a closer look

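The effect of the Eif2a mutation differed between the Ptpmt1-intact and Ptpmt1 knockout backgrounds in 3 genes, by limma's test of the difference itself. For Trib3 the difference was -4.63 ± 0.48 on the log2 scale (adjusted p = 0.000525): the log2 fold change was -2.91 in doubles against Ptpmt1 knockouts and 1.73 in mutants against controls. For Asns the difference was -2.09 ± 0.22 (adjusted p = 0.000525), with -2.07 on the knockout background and 0.02 without it. For Mthfd2 it was -1.84 ± 0.25 (adjusted p = 0.00835), with -1.99 on the knockout background and -0.15 without it. All 3 doubles lay below all 3 Ptpmt1 knockouts in each of these genes.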

How the results depend on the processing

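The 5 calls of mutants against controls became 3 with any value above 0 tested and 3 without an intensity trend, 1134 (631 higher, 503 lower) with sample weights, which gave mutant 1 a weight of 0.221, 47 with DESeq2, 1 among male-pattern libraries and 1 without mutant 1 with a sex term; the cause was not tested. Leaving out 1 library gave 2 to 17, the last without Ptpmt1 knockout 3 and the first without control 1. Doubles against Ptpmt1 knockouts (122) gave 317 with DESeq2, 58 with a sex term and 29 (without double 3) to 327 (without Ptpmt1 knockout 3) with 1 library left out. The difference between backgrounds (3) gave 5 with edgeR, 32 with DESeq2 and 3 to 35 with 1 library left out. Mutants against Ptpmt1 knockouts (407) gave 774 with DESeq2 and 82 (without mutant 2) to 944 (without Ptpmt1 knockout 3). Hri knockouts (3) gave 18 with edgeR, 16 with DESeq2 and 1 to 2 with 1 library left out. With 1 library left out, the difference in mitochondrial share (0.158 percentage points) ran from -0.160 to 0.355, in erythroid markers (-0.0406) from -0.102 to 0.00828, and in the 100 highest genes (-0.253) from -0.531 to 0.0914; none passed a test. No called gene changed sign; among uncalled genes, Asns, Phgdh, Ddit3, Chac1, Slc7a11, Myh6, Ptpmt1, Eif2ak1 and Eif2ak2 did in some settings. Over genes and settings, 1370 values stayed on their side of the threshold, 52 passed it newly and 36 no longer passed. Tppp3 rests on 35, 32 and 43 reads in controls, where depth limits precision. No paired analysis was possible because the labels give no replicate numbers shared between groups.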

Other observations

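A list of 40 tested targets of hypoxia-inducible factors was drawn up after the values above had been seen, so its count is a description and no test. Of these, 36 had a positive log2 fold change in mutants against controls, 21 were higher and 0 lower at an unadjusted p under 0.05, against 4.12% and 3.85% of all tested genes, and the median was 0.34, against -0.01 over all genes. 12 of the 40 are also on the glucose list; of the other 28, 24 were positive and 15 were higher at that level. Egln3, a prolyl hydroxylase induced by the factor it degrades, had 154, 175 and 164.7 normalized counts in mutants and 114, 103 and 68.4 in controls. Bnip3, a mitophagy receptor, had 485, 748 and 737 in mutants and 446, 461 and 327 in controls. Slc16a3, the lactate exporter MCT4, had 1484, 1934 and 1785 in mutants and 1283, 1236 and 1334 in controls. All 3 genes separated the groups. DESeq2 called 7 of the 40 as higher, and 20 of the 21 had the same sign in doubles against Ptpmt1 knockouts, where limma called 7 higher. Without mutant 1 the count was 25 higher and 1 lower, and with a term for sex pattern 19 higher and 0 lower.

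The clone-named gene 4930562C15Rik, chosen after its values were seen, was at 0, 0.737 and 0 in mutants and 77.3, 87.3 and 83.1 in controls. In doubles it was at 0, 97.2 and 0, and in Ptpmt1 knockouts at 0, 0 and 0.631. Thus 1 double and no mutant or Ptpmt1 knockout was near the control level.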
